A study of Mus musculus with 14 samples.

Results

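The 8 genes Agt, Ace, Agtr1a, Nr3c2, Edn1, Ece1, Ednra and Ednrb encode the core of the angiotensin and endothelin pathways. They were taken by symbol from a table of 24054 genes in mouse left ventricle. All 8 had enough counts to be tested, among 13588 genes tested in all.

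Both pathways make a short vasoactive peptide by cleavage of a larger precursor and pass its signal through receptors coupled to G proteins. Angiotensinogen, the product of Agt, is cut by renin and then by the angiotensin-converting enzyme, the product of Ace, to angiotensin II, which acts on the AT1a receptor (Agtr1a) and also drives the adrenal release of aldosterone, the ligand of the mineralocorticoid receptor (Nr3c2). Pre-proendothelin (Edn1) is processed to endothelin-1 by the endothelin-converting enzyme (Ece1) and acts on the ETA receptor (Ednra), which is known for vasoconstriction and muscle growth, and on the ETB receptor (Ednrb), which on endothelium is known for nitric oxide release and clearance of the peptide.

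The libraries were made from poly(A) RNA of left ventricles of C56Bl6 mice, as the labels spell the strain. Of 14 libraries, 5 are controls on a standard diet, labelled 10 weeks. The 4 libraries named HFpEF-scr had a high-fat diet with L-NAME for 6 weeks and an adeno-associated virus (AAV) with a scrambled hairpin for 4 weeks. The 5 libraries labelled HFpEF-FoxO1-sh had the same diet, L-NAME and times, with an AAV whose hairpin targets FoxO1. L-NAME inhibits nitric oxide synthases, and together with a high-fat diet it is used as a mouse model of heart failure with preserved ejection fraction (HFpEF). No AAV is named for the controls, so diet, L-NAME, virus and the labelled weeks cannot be told apart in a comparison with them. The promoter and the target cells of the hairpin are not given in the sources used here. No label says whether each replicate is its own mouse. A p here therefore rests on the variation among libraries, part of which may be technical.

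Libraries held 13174118 to 21247155 counts. Levels are in CPM, counts per 1000000 counts of the library after TMM scaling, and changes are log2 fold changes ± SE from edgeR's quasi-likelihood test, where a gene passed at a Benjamini-Hochberg adjusted p under 0.05 over all genes tested. Foxo1, the gene that the hairpin targets, averaged 44.0, 43.5 and 42.4 CPM in control, HFpEF-scr and the libraries labelled HFpEF-FoxO1-sh, with overlap of all groups, so its mRNA does not check that label. The ventricular origin was seen in 11 cardiomyocyte markers, whose summed level was between 117768 and 137802 CPM in all libraries, beside 44.2 to 189 CPM for 6 atrial markers. A few libraries stood apart. HFpEF-scr 1 had the highest red cell and endothelial marker levels, HFpEF-scr 1 and 2 the highest immediate early genes, and control 1 a clock gene state unlike the other controls. In bulk tissue, fewer cells of a type and less RNA per cell cannot be told apart.

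Per kilobase of exon, a scale on which genes can be compared, Ece1 was the most abundant of the 8 in controls at 29.4 ± 0.852 CPM per kb (SD, n = 5). It was followed by Agtr1a at 20.4 ± 3.95 and Ace at 16.4 ± 2.07, whose ranges over libraries overlapped. The receptors Ednra and Ednrb were level with each other, at 6.64 ± 1.22 and 6.50 ± 0.720. Nr3c2 at 3.91 ± 0.576 and the ligand gene Edn1 at 3.45 ± 1.04 also overlapped, and Agt was lowest at 1.64 ± 0.234. The converting enzyme of the endothelin pathway thus stood far above its ligand gene in these hearts, and the angiotensin receptor far above its precursor gene. In HFpEF-scr, Ednrb (8.09 ± 1.05, n = 4) was ranked above Ednra (7.97 ± 1.60), and in HFpEF-FoxO1-sh, Edn1 (5.18 ± 1.44, n = 5) above Nr3c2 (4.76 ± 0.523), in both cases with overlapping ranges.

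**Figure D1:**
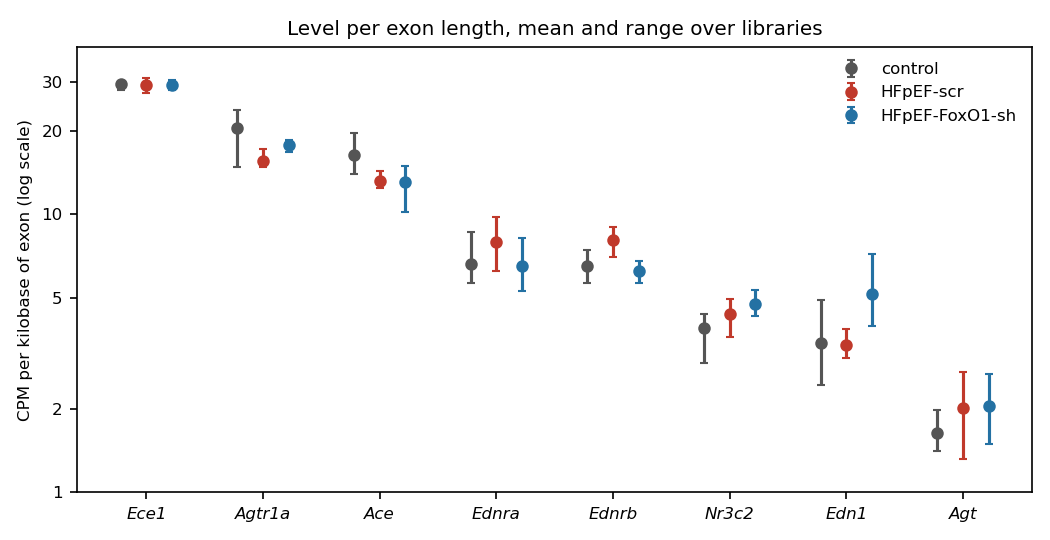
Level per exon length of the 8 genes in the 3 groups, in CPM per kilobase of exon on a log axis, with points for the group mean and bars from the lowest to the highest library. Ece1 sits near 29 CPM per kb in every group and Agt near 2, and Edn1 lies higher in HFpEF-FoxO1-sh (5.18) than in control (3.45) or HFpEF-scr (3.40).

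In HFpEF-scr against control, Ednrb rose by 24.6% and Agtr1a fell by 23.5%, and the other 6 genes did not pass. That is 2 of 8, beside 7.37% of all genes tested (498 higher, 3.66%, and 503 lower, 3.70%). At an unadjusted p under 0.05 it was 3 genes, with Ace the third. The median of the 8 log2 fold changes was 0.08, beside 0.00 over all genes, and 4 lay above and 4 below 0. DESeq2 called 3 of the 8 and limma voom 1. None of the 8 separated the groups, where 8.93% of all genes had no overlap of these groups. Cardiomyocyte markers were lower in the same comparison: 4 of 11 fell, 10 of 11 lay below 0, none was at 0 counts, and their summed level was 117768 to 127656 CPM in HFpEF-scr against 128921 to 137802 in control. Their mean log2 CPM had a Pearson r over the 14 libraries of -0.68 with Ednrb (-0.41 within groups) and 0.60 with Agtr1a (0.09 within groups), and their part in these calls was not tested.

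In HFpEF-FoxO1-sh against HFpEF-scr, Ednrb fell and no other of the 8 genes passed. That is 1 of 8, beside 3.58% of all genes (1.32% higher and 2.26% lower). At an unadjusted p under 0.05 it was 2 genes, Ednrb and Edn1, and these 2 were also the genes whose libraries did not overlap between the groups, beside 8.34% of all genes. DESeq2 and limma voom called 1 gene each. The median was 0.02, beside 0.00 over all genes.

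HFpEF-FoxO1-sh against control gave a fall of Ace and no other call. That is 1 of 8, beside 13.0% of all genes (6.68% higher and 6.28% lower). At an unadjusted p under 0.05 it was 3 genes, Ace, Edn1 and Nr3c2. DESeq2 called 2 and limma voom 1, the median was -0.02 beside 0.00 over all genes, and none of the 8 separated the groups, where 12.1% of all genes did. The 3 comparisons share libraries, as HFpEF-scr enters with opposite sign in the comparisons with control and with HFpEF-FoxO1-sh, so an opposite movement of a gene such as Ednrb in those comparisons is not independent evidence.

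**Figure D2:**
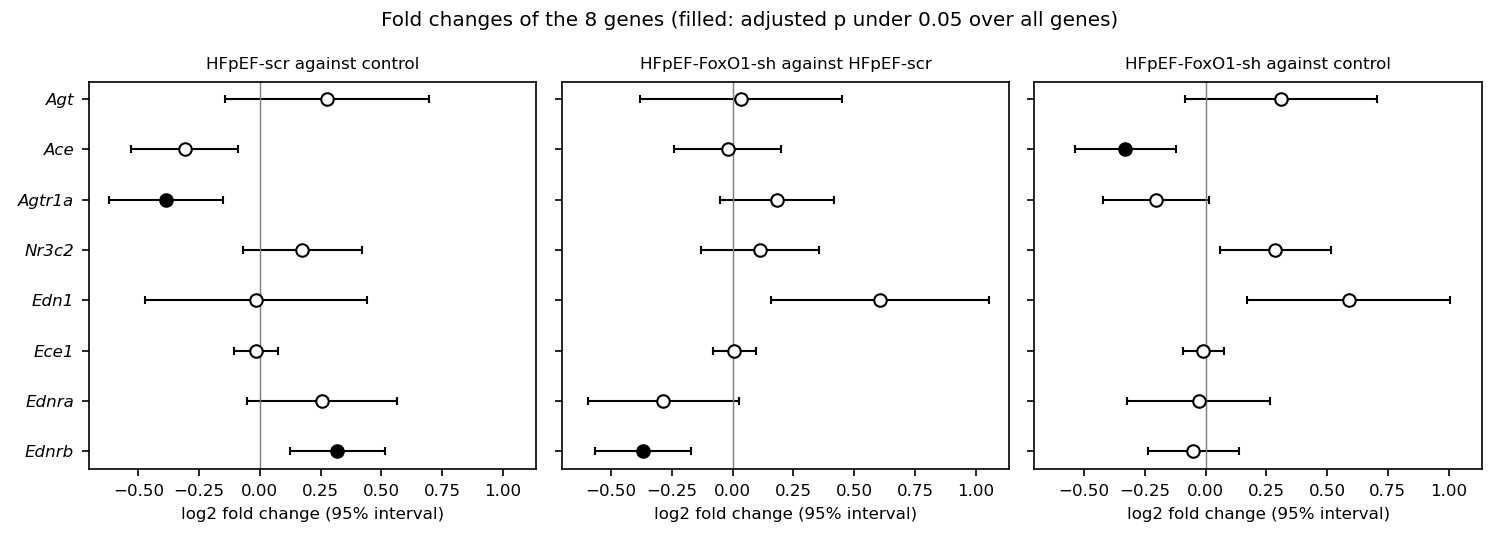
Log2 fold change with 95% interval of the 8 genes in the 3 comparisons, 1 panel each, with filled points for an adjusted p under 0.05 over all genes. Filled points are Agtr1a and Ednrb in HFpEF-scr against control, Ednrb in HFpEF-FoxO1-sh against HFpEF-scr and Ace in HFpEF-FoxO1-sh against control, and the widest intervals are those of Agt and Edn1.

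Agt, the angiotensinogen gene, lies on chromosome 8 at 124556534 to 124569706 (GRCm38, minus strand). It had few counts, 39 to 80 per library. Levels in controls 1 to 5 were 3.75, 3.04, 2.68, 3.30 and 2.73 CPM, those in HFpEF-scr 1 to 4 were 3.73, 5.13, 2.50 and 3.83, and those in HFpEF-FoxO1-sh 1 to 5 were 3.85, 3.51, 5.04, 2.82 and 4.13. The groups overlapped, and HFpEF-scr 2 and HFpEF-FoxO1-sh 3 and 5 were the highest, above every control. The differences from control were 0.28 ± 0.20 for HFpEF-scr (adjusted p = 0.428, and 0.10 without HFpEF-scr 2 or 0.44 without HFpEF-scr 3) and 0.31 ± 0.19 for HFpEF-FoxO1-sh (adjusted p = 0.305). The 95% interval of the latter ran from -5.63% to 63.2%.

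Ace, the angiotensin-converting enzyme gene, lies on chromosome 11 at 105967945 to 105989964 (plus strand). Controls 1 to 5 had 87.9, 104, 85.9, 81.7 and 74.1 CPM (86.7 ± 11.0, SD, n = 5). HFpEF-scr 1 to 4 had 68.7, 65.9, 69.1 and 76.0 CPM (69.9 ± 4.26, n = 4), and HFpEF-FoxO1-sh 1 to 5 had 79.0, 54.0, 79.0, 66.8 and 65.6 (68.9 ± 10.5, n = 5). Both HFpEF groups lay lower than the controls, and control 5, the lowest of its group, overlapped with both. Against control, Ace fell by 0.33 ± 0.10 in HFpEF-FoxO1-sh (adjusted p = 0.0357), a change of -20.5% with a 95% interval from -31.1% to -8.19%. The difference for HFpEF-scr was of like size, -0.31 ± 0.10, and did not pass (adjusted p = 0.0804), although DESeq2 called it (adjusted p = 0.0425). After adjustment for the score of immediate early genes, which is described with Edn1, it was -0.11 (adjusted p = 0.512). Ace and that score had a Pearson r of -0.65 over the 14 libraries and -0.78 after group means were removed. Between the HFpEF groups the difference was -0.02 ± 0.10 (adjusted p = 0.943), and the interval of the change reached -15.4% below and 14.9% above.

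The call of Ace was lost in 6 of 10 refits without 1 library, namely without control 1 (adjusted p = 0.0618), control 2 (0.0989), control 3 (0.0590), HFpEF-FoxO1-sh 2 (0.0754), HFpEF-FoxO1-sh 4 (0.0709) and HFpEF-FoxO1-sh 5 (0.0774), while the log2 fold change stayed between -0.38 and -0.26. It was also lost with the clock index, described with Agtr1a, as a covariate (-0.30, adjusted p = 0.0813), and was kept with the immediate early score (-0.32, adjusted p = 0.00565). An antisense gene, Gm11651, covers 5.58% of the exon bases of Ace, and whether counting used strand is not given in the sources used here. Macrophage markers were lower in the same libraries: 9 of 10 tested fell in HFpEF-FoxO1-sh against control (90%, beside 13.0% of all genes), with a summed level of 159 to 202 CPM against 233 to 313 in control and none at 0. Their part in the result for Ace was not tested.

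Agtr1a, the gene of the AT1a receptor, lies on chromosome 13 at 30336441 to 30382867 (plus strand). Controls 1 to 5 gave 41.4, 49.7, 65.8, 61.4 and 66.4 CPM (57.0 ± 11.0, SD, n = 5). HFpEF-scr 1 to 4 gave 41.1, 47.7, 42.1 and 43.1 (43.5 ± 2.93, n = 4), and HFpEF-FoxO1-sh 1 to 5 gave 46.9, 50.7, 51.0, 51.7 and 46.7 (49.4 ± 2.38, n = 5). The controls were widely spread, with 3, 4 and 5 high and 1 as low as HFpEF-scr, while each HFpEF group was tight. Agtr1a fell in HFpEF-scr against control by 0.39 ± 0.11 (adjusted p = 0.0451), a change of -23.5% with a 95% interval from -34.9% to -9.96%. The other comparisons gave 0.18 ± 0.11 for HFpEF-FoxO1-sh against HFpEF-scr (adjusted p = 0.385) and -0.20 ± 0.10 against control (adjusted p = 0.222).

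The fall of Agtr1a held in 2 of 9 refits without 1 library, without control 1 (adjusted p = 0.00230) and without control 2 (0.0440). It was lost without each of the other 7, control 3 (0.114), control 4 (0.0847), control 5 (0.104) and HFpEF-scr 1 to 4 (0.0832, 0.0551, 0.0873 and 0.0962), and with limma voom (0.0759). Without control 1, Agtr1a also passed in HFpEF-FoxO1-sh against control, at -0.30 (adjusted p = 0.0184). Control 1, the control with the lowest Agtr1a, also had the highest clock index of all 14 libraries. That index is the mean log2 CPM of 5 clock genes of the Arntl phase less that of 10 of the Dbp phase, and it was -1.44 in control 1 against -3.83 to -3.16 in the other controls, -3.33 to -2.15 in HFpEF-scr and -3.91 to -3.27 in HFpEF-FoxO1-sh. The HFpEF groups hardly overlapped on this index. In their comparison a fit with it as a covariate therefore cannot tell clock state and group apart, here and for the other genes. Over the 14 libraries, which share 1 preparation of the table and the same scaling, the level of Agtr1a and the index had a Pearson r of -0.62, and -0.75 after group means were removed. With the index as a covariate the call in HFpEF-scr was lost (-0.26, adjusted p = 0.0789) and that in HFpEF-FoxO1-sh against control was gained (-0.30, adjusted p = 0.0284).

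Nr3c2, the gene of the mineralocorticoid receptor, lies on chromosome 8 at 76899442 to 77245012 (plus strand). The 5 controls had 19.0, 26.0, 25.6, 28.3 and 27.7 CPM, the 4 HFpEF-scr libraries 23.4, 32.1, 28.7 and 29.6, and the 5 labelled HFpEF-FoxO1-sh 27.8, 29.4, 27.9, 34.2 and 34.7, in replicate order. The lowest value was again in control 1, and the highest were in HFpEF-FoxO1-sh 4 and 5. The differences from control were 0.18 ± 0.11 for HFpEF-scr (adjusted p = 0.384, and 0.08 without control 1) and 0.29 ± 0.11 for HFpEF-FoxO1-sh (adjusted p = 0.0942), and that between the HFpEF groups was 0.11 ± 0.11 (adjusted p = 0.633). The interval for HFpEF-FoxO1-sh against control ran from 4.16% to 43.1%. Nr3c2 too had a Pearson r of -0.63 with the clock index (-0.71 within groups), and with the index as a covariate the difference in HFpEF-FoxO1-sh against control was 0.19 (adjusted p = 0.202).

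**Figure D3:**
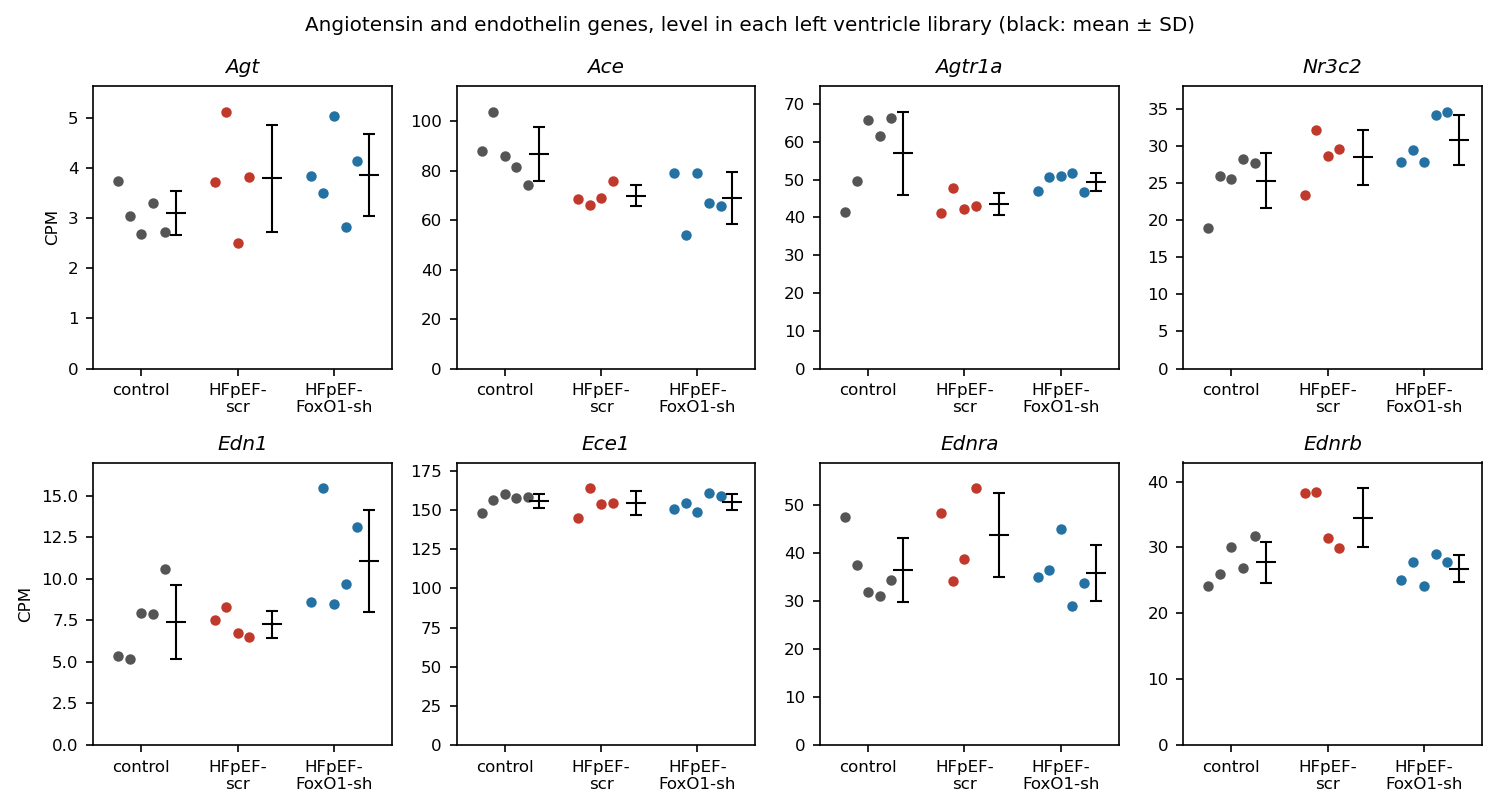
Level of the 8 genes in CPM in each of the 14 libraries, with coloured points for libraries in replicate order and black bars for the group mean ± SD. Ednrb is higher in HFpEF-scr 1 and 2 (38.3 and 38.4 CPM) than in any other library, Edn1 lies above all HFpEF-scr libraries in HFpEF-FoxO1-sh, and Agtr1a is spread from 41.4 to 66.4 CPM within the controls.

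Edn1, the endothelin-1 precursor gene, lies on chromosome 13 at 42301476 to 42307990 (plus strand). Controls 1 to 5 had 5.34, 5.19, 7.96, 7.88 and 10.6 CPM (7.39 ± 2.22, SD, n = 5), and HFpEF-scr 1 to 4 had 7.53, 8.31, 6.72 and 6.52 (7.27 ± 0.820, n = 4). HFpEF-FoxO1-sh 1 to 5 had 8.63, 15.5, 8.49, 9.72 and 13.1 (11.1 ± 3.08, n = 5). All libraries labelled HFpEF-FoxO1-sh lay above all of HFpEF-scr, by a narrow margin for 1 and 3 and a wide one for 2 and 5, and control 5 lay among them. The log2 fold change was 0.61 ± 0.21 against HFpEF-scr (adjusted p = 0.115) and 0.59 ± 0.20 against control (adjusted p = 0.0597). These did not pass, and their 95% intervals, from 11.5% to 108% and from 12.7% to 101%, were wide. HFpEF-scr and control differed by -0.02 ± 0.22 (adjusted p = 0.975). Counts of Edn1 were 70 to 207 per library.

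Edn1 also differed between libraries of 1 group along with immediate early genes, the fast transcriptional response of cells to a stimulus. Their score, the mean log2 CPM of 20 genes such as Fos and Egr1, was 3.17 to 5.91 over the controls, 4.52 to 6.72 over HFpEF-scr and 3.25 to 5.48 over HFpEF-FoxO1-sh. The 14 libraries gave a Pearson r of 0.37 between score and Edn1, and 0.81 after group means were removed. Edn1 was highest in the library with the highest score within HFpEF-FoxO1-sh (replicate 2), within the controls (replicate 5) and within HFpEF-scr (replicate 2). After adjustment for that score Edn1 passed in HFpEF-FoxO1-sh against HFpEF-scr (0.95, adjusted p = 0.00687) and against control (0.57, adjusted p = 0.00910). With the clock index as a covariate it was 0.34 (adjusted p = 0.594) and 0.47 (adjusted p = 0.146), and Edn1 had a Pearson r of -0.60 with that index (-0.45 within groups). Against control it also passed with DESeq2 (adjusted p = 0.0272), without control 5 (0.0204) and without HFpEF-FoxO1-sh 3 (0.0484), and it was farthest from passing without HFpEF-FoxO1-sh 2 (0.44, adjusted p = 0.156).

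Ece1, the endothelin-converting enzyme gene, lies on chromosome 4 at 137862237 to 137965229 (plus strand). It was the steadiest of the 8, with 148, 156, 160, 157 and 158 CPM in controls 1 to 5, 145, 164, 154 and 154 in HFpEF-scr 1 to 4, and 151, 155, 149, 161 and 159 in HFpEF-FoxO1-sh 1 to 5. The 3 groups lay within the same span of 20 CPM. No comparison passed, with -0.02 ± 0.04, 0.01 ± 0.04 and -0.01 ± 0.04 (adjusted p = 0.859, 0.957 and 0.910). With 2062 to 3166 counts per library, the 95% interval for HFpEF-FoxO1-sh against control ran from -6.30% to 5.33%. Ece1 has 4 start sites in RefSeq, and its expected counts were not whole in 14 of 14 libraries, as happens where reads are divided between genes. The same was seen for Ednrb in 12 libraries and for Ace in 2.

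Ednra, the gene of the ETA receptor, lies on chromosome 8 at 77663031 to 77724464 (minus strand). Levels were 47.4, 37.4, 31.8, 30.9 and 34.3 CPM in controls 1 to 5, 48.2, 34.2, 38.7 and 53.4 in HFpEF-scr 1 to 4, and 34.9, 36.4, 45.0, 28.9 and 33.7 in HFpEF-FoxO1-sh 1 to 5. High and low libraries occurred in every group, and control 1 was above 2 of the HFpEF-scr libraries. The differences were 0.26 ± 0.15 for HFpEF-scr against control (adjusted p = 0.306, from 0.14 without HFpEF-scr 4 to 0.38 without control 1), -0.29 ± 0.15 for HFpEF-FoxO1-sh against HFpEF-scr (adjusted p = 0.297, and -0.17 without HFpEF-scr 4) and -0.03 ± 0.14 for HFpEF-FoxO1-sh against control (adjusted p = 0.925).

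Ednrb, the gene of the ETB receptor, lies on chromosome 14 at 103814625 to 103844402 (minus strand). Controls 1 to 5 held 24.1, 26.0, 30.02, 26.9 and 31.7 CPM (27.7 ± 3.07, SD, n = 5). HFpEF-scr 1 to 4 held 38.3, 38.4, 31.4 and 29.97 (34.5 ± 4.46, n = 4), and HFpEF-FoxO1-sh 1 to 5 held 25.1, 27.8, 24.1, 29.0 and 27.7 (26.8 ± 2.04, n = 5). HFpEF-scr 1 and 2 were above all other libraries, HFpEF-scr 3 and 4 lay within the upper range of the controls, and every library labelled HFpEF-FoxO1-sh lay below every HFpEF-scr library. Ednrb rose in HFpEF-scr against control by 0.32 ± 0.09 (adjusted p = 0.0471), or 24.6% with a 95% interval from 8.84% to 42.7%. It fell in HFpEF-FoxO1-sh against HFpEF-scr by 0.37 ± 0.09 (adjusted p = 0.0400), a change of -22.5% with an interval of -32.4% to -11.2%. HFpEF-FoxO1-sh and control differed by -0.05 ± 0.09 (adjusted p = 0.768), and the interval of that difference spanned -15.2% to 9.96%.

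Both calls of Ednrb lay near the threshold and were lost in most refits without 1 library. The rise held in 3 of 9 refits without 1 library, those without control 5 (adjusted p = 0.0335), HFpEF-scr 3 (0.0450) and HFpEF-scr 4 (0.0344), and was lost without control 1 (0.0854), 2 (0.0998), 3 (0.0624) and 4 (0.0818) and without HFpEF-scr 1 (0.109) and 2 (0.143), where it was 0.26 in each of the latter. The fall held without HFpEF-scr 3 (0.0478) and 4 (0.0177) and was lost without HFpEF-scr 1 (0.110) and 2 (0.0996) and without HFpEF-FoxO1-sh 1 to 5 (0.0934, 0.0664, 0.0843, 0.0601 and 0.0507). Its log2 fold change stayed between -0.43 and -0.31 in these refits. HFpEF-scr 1 and 2, in which Ednrb was highest, also had the highest immediate early scores of all 14 libraries, 6.30 and 6.72. The Pearson r of Ednrb with that score was 0.78 over the libraries and 0.67 after group means were removed. After adjustment for that score the rise was 0.18 (adjusted p = 0.303) and the fall -0.24 (adjusted p = 0.173), and with the clock index as a covariate they were 0.35 (adjusted p = 0.0524) and -0.42 (adjusted p = 0.143).

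Endothelial cells are a known site of Ednrb. Of 12 endothelial markers, all tested and none at 0, 2 rose in HFpEF-scr against control (16.7%, beside 7.37% of all genes). In that comparison 6 lay above and 6 below 0, with a median of 0.00. In HFpEF-FoxO1-sh against HFpEF-scr 1 of these markers fell (8.33%, beside 3.58%), with 3 above and 9 below 0. Their summed level was 1377.5 to 1512 CPM in control, 1360 to 1866 in HFpEF-scr and 1338 to 1421 in HFpEF-FoxO1-sh, and the highest of these was in HFpEF-scr 1. Ednrb and the mean log2 CPM of these markers had a Pearson r of 0.64, and 0.63 after group means were removed, over the same 14 libraries. The part of these markers in the result for Ednrb was not tested. The ratio of Ednra to Ednrb counts had a median of 1.15 in control (1.06 to 1.96), 1.25 in HFpEF-scr (0.890 to 1.78) and 1.31 in HFpEF-FoxO1-sh (0.998 to 1.86). The groups overlapped widely, and 2-sided exact permutation tests of its mean log2 gave p = 0.841, 0.690 and 0.897 in the order of the comparisons above (adjusted p = 0.897 over the 3).

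**Figure D4:**
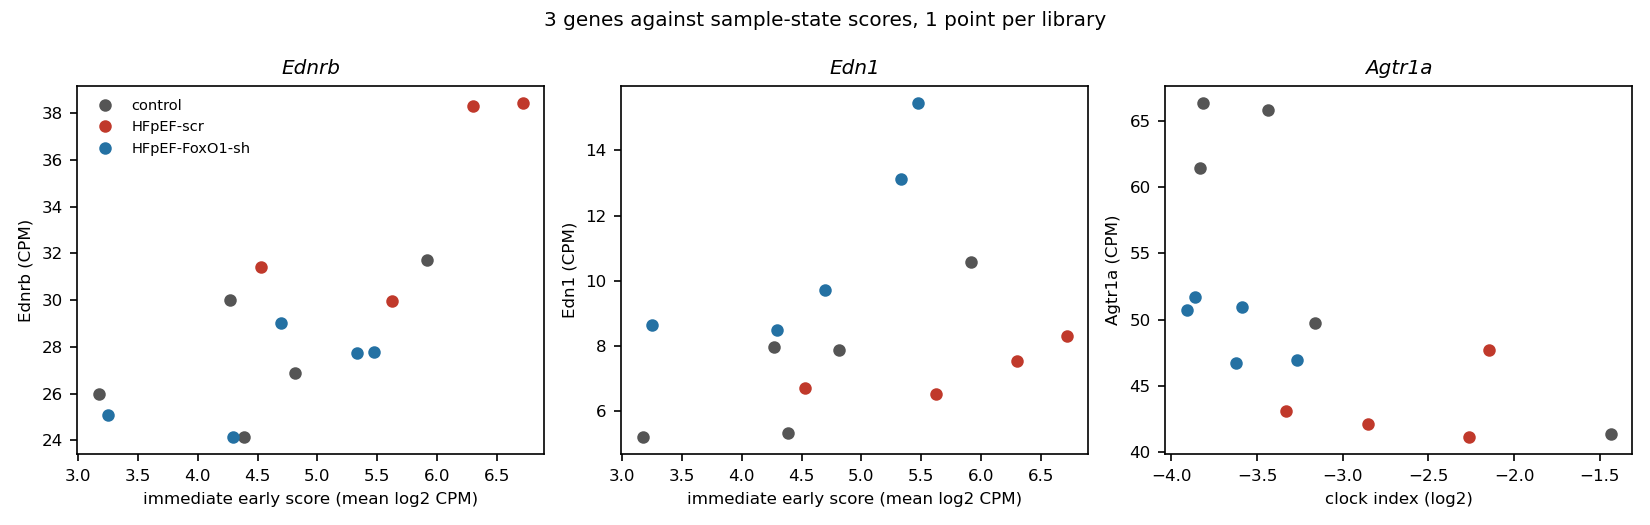
Level of Ednrb, Edn1 (against the immediate early score) and Agtr1a (against the clock index) in CPM, 1 point per library, coloured by group. HFpEF-scr 1 and 2 lie highest on both axes for Ednrb, and within each group the library with the highest score had the most Edn1, while the control with the highest clock index (-1.44) had the least Agtr1a of its group.

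The promoters of the endothelin genes that separated HFpEF-FoxO1-sh from HFpEF-scr are shown because the hairpin was aimed at a transcription factor whose core motif can be looked for there. RefSeq (GRCm38.p6) held 11 start sites for 7 of the 8 genes, and not for Agtr1a. Each window is the 250 bases before a start site, written in the direction of the gene in lower case, with a matched motif in capitals. The window of Ednrb is chr14:103843702-103843951, minus strand, within the span of the gene. That of Edn1 is chr13:42301226-42301475, plus strand, and that of Agt, which holds the only TATA box found, is chr8:124569707-124569956, minus strand. None of their bases lies in an annotated exon.
Ednrb: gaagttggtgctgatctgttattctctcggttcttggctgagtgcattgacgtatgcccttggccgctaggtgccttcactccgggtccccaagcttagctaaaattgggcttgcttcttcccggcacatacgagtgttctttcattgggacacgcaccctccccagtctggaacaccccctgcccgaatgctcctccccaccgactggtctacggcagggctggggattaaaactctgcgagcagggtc
Edn1: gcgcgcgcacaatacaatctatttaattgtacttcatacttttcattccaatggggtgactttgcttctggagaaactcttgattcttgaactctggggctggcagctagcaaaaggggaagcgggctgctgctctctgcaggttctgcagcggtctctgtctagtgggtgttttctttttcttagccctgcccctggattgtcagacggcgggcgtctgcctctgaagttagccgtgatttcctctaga
Agt: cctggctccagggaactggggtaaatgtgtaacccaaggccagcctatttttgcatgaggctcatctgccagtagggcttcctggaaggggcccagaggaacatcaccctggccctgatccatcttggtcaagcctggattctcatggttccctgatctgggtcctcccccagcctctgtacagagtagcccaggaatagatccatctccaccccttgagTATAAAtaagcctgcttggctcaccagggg

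The FoxO core TGTTTAC, searched on both strands, was in none of the 11 windows and in 3.17% of 32851 promoter windows of the same length. Also searched on both strands were the AP-1 site TGANTCA (in 6.75% of all windows), the D-box TTATGNAA (3.07%) and the GATA site AGATAA (9.99%), and none was found in the 11. The E-box CACGTG (6.02%) was found once, in a window of Ece1 90 bases before its start site. The steroid receptor palindrome (0.387%), on both strands, was not found. The TATA box TATAAA, searched on the strand of the gene (7.59%), was found in the window of Agt, 30 bases before the start site. No motif is contained in another. A match describes these letters only, and a window without a match says nothing about binding elsewhere.

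The further genes of the pathways were followed in 9 lists with 118 genes, of which 90 were tested. In HFpEF-scr against control 17 of them passed, 11 up and 6 down (18.9%, beside 7.37% of all genes). In HFpEF-FoxO1-sh against HFpEF-scr it was 7, all down (7.78%, beside 3.58%), and in HFpEF-FoxO1-sh against control 16, 5 up and 11 down (17.8%, beside 13.0%). Medians were 0.08, -0.09 and -0.00. In refits without each library in turn, 4 of the 17, 0 of the 7 and 8 of the 16 calls held every time, and after adjustment for the immediate early score 4 genes passed in the comparison of HFpEF-scr with control.

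**Figure D5:**
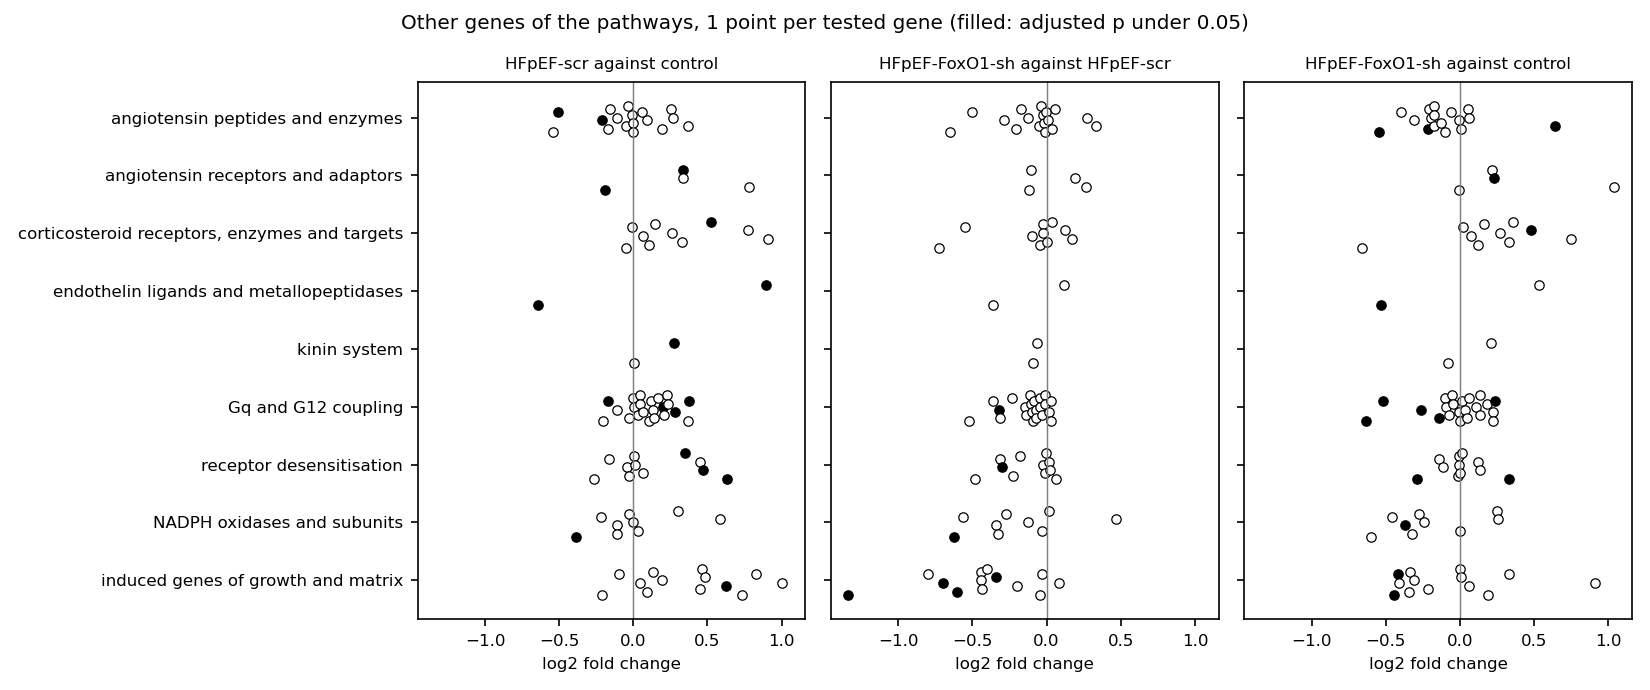
Log2 fold change of the 90 other pathway genes by list, 1 point per tested gene and 1 panel per comparison, with filled points for an adjusted p under 0.05. The filled points of HFpEF-FoxO1-sh against HFpEF-scr all lie below 0, while in HFpEF-scr against control 11 lie above and 6 below.

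Renin is the enzyme that starts the angiotensin cascade, and its gene Ren1 had no count in any library. Over all libraries together this allows a level of up to 0.0143 CPM, which is 3 counts of the total and covers counting error only. The same held for Ctsg, another enzyme able to cut angiotensins, and for the aldosterone synthase gene Cyp11b2. The AT1b and AT2 receptor genes Agtr1b and Agtr2 had 1 and 4 counts in all, and Edn2, the gene of endothelin-2, had 4. Among the AT receptor genes, Agtr1a thus held nearly all counts.

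Of 17 tested genes of angiotensin peptides and enzymes, none rose and 2 fell in HFpEF-scr against control (11.8%, beside 7.37% of all genes). In HFpEF-FoxO1-sh against control 1 rose and 2 fell (17.6%, beside 13.0%). Prcp, a carboxypeptidase that removes the last residue of angiotensin II, fell from 15.7 CPM in control to 11.0 in HFpEF-scr and 10.7 in HFpEF-FoxO1-sh, by 0.51 ± 0.11 (adjusted p = 0.0151) and 0.55 ± 0.11 (adjusted p = 0.00343). Its controls, 13.9 to 17.9 CPM, lay above all libraries of both HFpEF groups, 8.89 to 12.7. After adjustment for the immediate early score the fall in HFpEF-scr was lost (-0.36, adjusted p = 0.105). Mme, which encodes neprilysin, an enzyme that degrades angiotensins, endothelin and natriuretic peptides, rose in HFpEF-FoxO1-sh against control from 13.8 to 21.5 CPM, by 0.64 ± 0.13 (adjusted p = 0.00387), with 16.7 to 26.2 CPM against 11.2 to 16.0 in control. HFpEF-scr 1 to 4 had 15.8, 19.9, 15.5 and 20.3 CPM of Mme, which overlapped with both other groups. Mme passed neither in HFpEF-scr against control nor between the HFpEF groups. Dpp3, a peptidase that also cuts angiotensin II, fell against control by 0.21 ± 0.06 in HFpEF-scr (adjusted p = 0.0454, called in 1 of 9 refits without 1 library and up to 0.113 without HFpEF-scr 4) and by 0.22 ± 0.06 in HFpEF-FoxO1-sh (adjusted p = 0.0205).

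Among 4 tested receptors and adaptors, 1 rose and 1 fell in HFpEF-scr against control (50%, beside 7.37% of all genes). Against control, 1 rose in HFpEF-FoxO1-sh (25%, beside 13.0%). Mtus1, which encodes a protein that binds the AT2 receptor, rose in HFpEF-scr by 0.34 ± 0.07 (adjusted p = 0.0132) and in HFpEF-FoxO1-sh by 0.23 ± 0.07 against control (adjusted p = 0.0373). The latter call was lost in 8 of 10 refits without 1 library (up to 0.0961 without control 2). After adjustment for the immediate early score the rise of Mtus1 in HFpEF-scr was lost (adjusted p = 0.0745). Agtrap, whose product promotes internalisation of the AT1 receptor, fell in HFpEF-scr by 0.19 ± 0.05 (adjusted p = 0.0433), in 2 of 9 refits without 1 library (up to 0.110 without control 3). Of 10 genes of corticosteroid receptors, enzymes and targets only Tsc22d3, a glucocorticoid-induced regulator also responsive to mineralocorticoids, passed (10% in each comparison with control, beside 7.37% and 13.0% of all genes). It rose against control by 0.52 ± 0.15 in HFpEF-scr (adjusted p = 0.0421, up to 0.138 without HFpEF-scr 4) and by 0.48 ± 0.14 in HFpEF-FoxO1-sh (adjusted p = 0.0334, up to 0.0851 without control 2), and each call held in 4 refits without 1 library.

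Of the other endothelin genes, 2 were tested. Against control, 1 rose and 1 fell in HFpEF-scr (100%, beside 7.37% of all genes), and 1 fell in HFpEF-FoxO1-sh (50%, beside 13.0%). Edn3, the gene of endothelin-3, a ligand with preference for ETB, had 5.76, 7.05, 4.76, 4.31 and 5.32 CPM in controls 1 to 5, 5.21, 16.2, 8.77 and 10.3 in HFpEF-scr 1 to 4, and 7.24, 8.51, 10.1, 7.04 and 6.53 in HFpEF-FoxO1-sh 1 to 5. HFpEF-scr 2 was by far the highest, and HFpEF-scr 1 lay among the controls. Edn3 rose in HFpEF-scr against control by 0.89 ± 0.24 (adjusted p = 0.0347). Without HFpEF-scr 2 the value was 0.57 (adjusted p = 0.127), and the call was also lost without control 3 (0.0809), 4 (0.0694) and 5 (0.0650) and without HFpEF-scr 4 (0.0757). Ece2, a relative of Ece1, fell from 4.05 CPM in control to 2.58 in HFpEF-scr, by 0.64 ± 0.15 (adjusted p = 0.0203, lost without HFpEF-scr 4 at 0.0546), and to 2.80 in HFpEF-FoxO1-sh, by 0.53 ± 0.14 (adjusted p = 0.0228, lost in 4 of 10 refits, up to 0.0624 without control 2). Of the kinin genes, 2 were tested, and 1 rose in HFpEF-scr against control (50%, beside 7.37% of all genes). This was Cpm, a carboxypeptidase of kinins, by 0.27 ± 0.07 (adjusted p = 0.0338). The call held in 4 of 9 refits without 1 library (up to 0.101 without HFpEF-scr 2).

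Receptors of both peptides couple to Gq and G12 proteins and are switched off by receptor kinases and RGS proteins. Of 11 genes of desensitisation, 1 fell in HFpEF-FoxO1-sh against HFpEF-scr (9.09%, beside 3.58% of all genes). Against control, 1 rose and 1 fell in HFpEF-FoxO1-sh (18.2%, beside 13.0%). In HFpEF-scr against control 3 rose (27.3%, beside 7.37%). The largest was Grk5, a receptor kinase of cardiac muscle, with 36.1, 37.4, 36.6, 32.4 and 30.9 CPM in controls 1 to 5, 52.1, 62.1, 51.0 and 49.95 in HFpEF-scr 1 to 4, and 41.4, 46.1, 44.2, 39.3 and 47.1 in HFpEF-FoxO1-sh 1 to 5. The 3 groups did not overlap, with HFpEF-FoxO1-sh between the others. Grk5 rose against control by 0.63 ± 0.08 in HFpEF-scr (adjusted p = 1.34e-04) and by 0.33 ± 0.07 in HFpEF-FoxO1-sh (adjusted p = 0.00742), both in every refit and setting tried. It fell in HFpEF-FoxO1-sh against HFpEF-scr by 0.30 ± 0.08 (adjusted p = 0.0380), held in 2 of 9 refits without 1 library (up to 0.0972 without HFpEF-scr 2). Adrbk2, another receptor kinase gene of this list, moved the other way from Grk5 in HFpEF-FoxO1-sh against control. It fell by 0.29 (adjusted p = 0.0294), held in 6 of 10 refits without 1 library (up to 0.0768 without control 2). Rgs5, an RGS protein that is also a pericyte marker here, rose in HFpEF-scr from 188 to 240 CPM, by 0.35 ± 0.07 (adjusted p = 0.00524). Of the 9 pericyte markers, none at 0, Rgs5 was the 1 that rose (11.1%, beside 7.37% of all genes), with summed levels of 1148 to 1318 CPM in control and 1187 to 1314 in HFpEF-scr. These markers lay above 0 in 7 cases and below in 2, with a median of 0.09.

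Of 22 genes of Gq and G12 coupling, 3 rose and 1 fell in HFpEF-scr against control (18.2%, beside 7.37% of all genes). In HFpEF-FoxO1-sh against HFpEF-scr 1 fell (4.55%, beside 3.58%), and in HFpEF-FoxO1-sh against control 1 rose and 4 fell (22.7%, beside 13.0%). The kinase gene Rock1, an effector of RhoA, rose against control by 0.28 ± 0.07 in HFpEF-scr (adjusted p = 0.0277, up to 0.0857 without HFpEF-scr 4) and by 0.24 ± 0.07 in HFpEF-FoxO1-sh (adjusted p = 0.0322, up to 0.0794 without control 3). These calls of Rock1 held in 4 of 9 and 5 of 10 refits without 1 library. Among protein kinase C genes, those that fell in HFpEF-FoxO1-sh against control were Prkcb by 0.63 ± 0.14 (adjusted p = 0.00747), Prkcd by 0.52 ± 0.11 (adjusted p = 0.00544) and Prkca by 0.26 ± 0.07 (adjusted p = 0.0171). Prkce, also of this list, passed in no comparison. Prkca also fell against HFpEF-scr, by 0.32 ± 0.07 (adjusted p = 0.0227, lost in 2 of 9 refits, up to 0.0614 without HFpEF-scr 3). Of 9 genes of NADPH oxidases, 1 passed in each comparison (11.1%, beside 7.37%, 3.58% and 13.0% of all genes in the order above). Cyba, the membrane subunit, fell against control by 0.38 ± 0.10 in HFpEF-scr (adjusted p = 0.0347, up to 0.0894 without HFpEF-scr 3) and by 0.37 ± 0.10 in HFpEF-FoxO1-sh (adjusted p = 0.0199, up to 0.0564 without HFpEF-FoxO1-sh 1). These calls of Cyba held in 3 of 9 and 8 of 10 refits without 1 library. Ncf1, a cytosolic subunit, fell in HFpEF-FoxO1-sh against HFpEF-scr by 0.62 ± 0.15 (adjusted p = 0.0299). That call held in 3 of 9 refits without 1 library (up to 0.0646 without HFpEF-scr 3). Its level was 3.94 to 4.96 CPM in HFpEF-scr and 2.04 to 3.47 in HFpEF-FoxO1-sh. Prkcb, Prkcd, Cyba and Ncf1 are also expressed in leukocytes. Of 10 macrophage markers, 9 fell in HFpEF-FoxO1-sh against control (90%, beside 13.0% of all genes, median -0.55). Against HFpEF-scr 2 fell (20%, beside 3.58%), and none passed in HFpEF-scr against control. Their summed level was 233 to 313 CPM in control, 213 to 267 in HFpEF-scr and 159 to 202 in HFpEF-FoxO1-sh. The part of these markers was not tested.

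Of 13 genes of growth and matrix that angiotensin II and endothelin-1 are known to induce, 1 rose in HFpEF-scr against control (7.69%, near the 7.37% of all genes). This was Acta2, by 0.63 ± 0.15 (adjusted p = 0.0218, lost in 3 of 9 refits, up to 0.0701 without HFpEF-scr 4). It is also 1 of 8 smooth muscle markers, 2 of which rose (25%, beside 7.37%). The 13 genes lay above 0 in 11 cases and below in 2 for HFpEF-scr against control, with a median of 0.45. Against control, 2 of the 13 fell and none rose in HFpEF-FoxO1-sh (15.4%, beside 13.0% of all genes), with 6 above and 7 below 0. In HFpEF-FoxO1-sh against HFpEF-scr 4 of the 13 fell and none rose (30.8%, beside 3.58% of all genes). Fn1, the gene of fibronectin, fell from 90.0 to 55.4 CPM, by 0.70 ± 0.15 (adjusted p = 0.0195, lost in 2 of 9 refits, up to 0.0526 without HFpEF-FoxO1-sh 1). Rcan1, a calcineurin target, fell by 0.61 ± 0.14 (adjusted p = 0.0287, held in 3 of 9 refits, up to 0.0823 without HFpEF-scr 1). Rcan1 also fell in HFpEF-FoxO1-sh against control, by 0.42 (adjusted p = 0.0489), held in 2 of 10 refits without 1 library (up to 0.126 without control 1). Against HFpEF-scr the chemokine gene Ccl2 fell by 1.34 ± 0.32 (adjusted p = 0.0313, held in 3 of 9 refits, up to 0.102 without HFpEF-scr 1). Levels of Ccl2 were low, at 1.98 to 5.98 CPM in HFpEF-scr and 1.06 to 1.72 in HFpEF-FoxO1-sh. HFpEF-scr 1 and 2, which also had the highest immediate early scores, lay above all other libraries. HFpEF-scr 3 and 4, at 2.05 and 1.98 CPM, lay within the range of the controls, 1.19 to 2.32. Tgfb1, the profibrotic cytokine, had 26.3, 30.6, 30.1, 27.2 and 28.8 CPM in controls 1 to 5, 26.0, 24.9, 30.9 and 25.2 in HFpEF-scr 1 to 4, and 19.98, 22.4, 21.9, 21.5 and 19.6 in HFpEF-FoxO1-sh 1 to 5. The last group lay below all other libraries. Tgfb1 fell by 0.34 ± 0.07 against HFpEF-scr (adjusted p = 0.0204, lost in 2 of 9 refits, up to 0.0590 without HFpEF-FoxO1-sh 1) and by 0.44 ± 0.07 against control (adjusted p = 6.42e-04). Fibroblast markers were lower in the same comparison with HFpEF-scr: 3 of 12 fell (25%, beside 3.58% of all genes), all 12 lay below 0, none was at 0 counts, and their summed level was 2237 to 2819 CPM in HFpEF-scr and 1994 to 2505 in HFpEF-FoxO1-sh. Their part in these falls was not tested.

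The 8 genes did not vary together as a block. Over the 14 libraries, which include the differences between groups, Ace and Edn1 had a Pearson r of log2 CPM of -0.78, Ednra and Ece1 -0.75, Agtr1a and Ednra -0.65, Ece1 and Nr3c2 0.67 and Edn1 and Nr3c2 0.60. Among the 10013 other tested genes (10014 for Agt) that averaged 5 CPM or more, those most like each gene over the 14 libraries were listed by the same measure. As the highest of so many values over 14 libraries, these r are large in part by selection. They were not tested and describe these libraries only. For Ace they were Adrbk2 (0.89), Cyb561 (0.88) and Pml (0.83). Cyb561 is a neighbour of Ace, 14.6 kb before it on the opposite strand. Ednrb was most like Spcs3 (0.90), Boc (0.89) and Myh7 (0.86), the last a gene of ventricular stress. Edn1 was most like Smpd2 (0.91), Rpf1 (0.90) and Txnip (0.88), Agtr1a like Arhgap32 (0.93), Patz1 (0.93) and Cd274 (0.89), and Ednra like Slc39a14 (0.91), Klhl2 (0.91) and Grb10 (0.90). Agt was most like Fas (0.85), Acin1 (0.82) and Wasl (0.79), Ece1 like Zcchc11 (0.89), Podxl2 (0.89) and Usp30 (0.85), and Nr3c2 like Bhlhb9 (0.91), Pdcd4 (0.90) and Sspn (0.90).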

How the data were processed

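The deposited table holds expected counts per gene, which the authors made with RSEM 1.2.15 and Bowtie2 2.1.0 on mm10, per the submitters' processing notes, from poly(A) libraries (Swift Biosciences RNA Library Kit, per the labels). The gene annotation and strand setting of the counting are not given in the sources used here. Expected counts were rounded to whole numbers. Genes were kept by edgeR's filterByExpr, scaled by TMM and fitted in all 14 libraries by group with edgeR 4.0.16 (quasi-likelihood, R 4.3.3), and p-values were adjusted by the Benjamini-Hochberg method over the 13588 genes tested in each of 3 comparisons. Alternatives used DESeq2 1.42.0, limma 3.58.1 and the settings named in the closing section. Scores are mean log2 CPM with a prior count of 2. The fits were tested on simulated data. No 2 libraries of a group were duplicates.

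The 8 genes and all lists were chosen with earlier results of these data known. Named were all 8 genes, pathway genes from among those that passed, and for each of the 8 the 3 genes of highest Pearson r. Gene spans come from GENCODE on GRCm38 and promoters from RefSeq. Same-numbered replicates did not vary together, with r of -0.194 to 0.111 over 13 pairs, so they were not paired.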

Additional observations from a re-analysis of the deposited data

How the results depend on the processing

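The comparisons, in the order of the text, were refitted under 18, 18 and 19 settings, of which 9, 9 and 10 left out 1 library. Among 1176 fold changes of single genes under these settings, 885 kept direction and side of the threshold, 255 lost the call, 9 gained one and 27 changed sign. The cause was not tested. In HFpEF-scr against control, 1001 genes, 2 of the 8 and 17 pathway genes passed. The immediate early score as a covariate gave 397, 1 and 4, the 2 groups alone 504, 0 and 8, limma voom 1 of the 8, the clock index as a covariate 0 and the replicate block 0. Leaving out libraries gave 537 (without control 3) to 1106 genes, 0 to 1 of the 8 and 6 to 18 pathway genes. In HFpEF-FoxO1-sh against HFpEF-scr, 486 genes, 1 of the 8 (Ednrb) and 7 pathway genes passed. DESeq2 gave 857 genes and 13 pathway genes, the replicate block 291 genes and 0 of the 8, the immediate early score 230 genes, and the clock index 30 genes, 0 of the 8 and 0 pathway genes. The clock index hardly overlapped between these groups (-3.33 to -2.15 in HFpEF-scr, -3.91 to -3.27 in HFpEF-FoxO1-sh), so this setting cannot tell clock state and group apart. Leaving out libraries gave 162 (without HFpEF-FoxO1-sh 1) to 668 genes (without HFpEF-scr 4), 0 to 1 of the 8 and 1 to 9 pathway genes. In HFpEF-FoxO1-sh against control, 1 of the 8 and 16 pathway genes became 2 of the 8 with DESeq2 and with the immediate early score, and 0 to 2 and 8 to 16 when libraries were left out. Under the replicate block the 1 of the 8 was Nr3c2 (0.29, adjusted p = 0.0197) in place of Ace (adjusted p = 0.0550). The numbers do not pair the libraries, since 2 of 14 correlated best with their own number.

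Values that changed sign were all uncalled. For HFpEF-scr against control, Edn1 was 0.044 with limma voom, 0.093 with the replicate block, 0.13 with the clock index and -0.12 to 0.15 without a library, and Ece1 was 0.00067 with the clock index and -0.048 to 0.0094 without a library. For HFpEF-FoxO1-sh against HFpEF-scr, the clock index gave 0.032 for Ace, -0.032 for Agtr1a, -0.027 for Ece1 and -0.092 for Nr3c2, the replicate block 0.011 for Ace, and leaving out libraries -0.075 to 0.055 for Ace, -0.12 to 0.22 for Agt and -0.020 to 0.038 for Ece1. For HFpEF-FoxO1-sh against control, Ednra was 0.059 with the clock index and -0.12 to 0.092 without a library, Ednrb -0.10 to 0.0017 and Ece1 -0.027 to 0.0045. Agt and Edn1 had the fewest counts of the 8, and counting error was not separated from the spread between libraries.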
